A study of Saccharomyces cerevisiae with 15 samples.

Results

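The genes of sugar breakdown to ethanol and of the routes to acetyl-CoA were followed in the yeast Saccharomyces cerevisiae. The members were chosen by name, with earlier results of these data known. All 34 were found among the 7127 gene rows of the count table. They encode the enzymes from hexose phosphorylation to pyruvate kinase, pyruvate decarboxylase, alcohol and aldehyde dehydrogenases, acetyl-CoA synthetases and the pyruvate dehydrogenase complex. Polyadenylated RNA was sequenced from strain W303 carrying ZPR1-AID, in which Zpr1, a chaperone for the elongation factor eEF1A, carries a degron induced by auxin at its C-terminal end. The 5 groups of 3 libraries were cells left untreated (time 0), cells kept in 5-Ph-IAA, an auxin derivative, for 0.5 h, for 1.5 h and for 3 h, and a group with DMSO for 3 h. All 15 libraries carried the tagged allele, so the compound was not measured in cells without it. DMSO was sampled at 3 h alone, so differences of the earlier times from untreated cells also hold those of time and handling. The labels give growth to mid-log phase but neither the carbon source nor whether replicates were separate cultures. The p-values therefore measure only the spread between these libraries.

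Library totals ran from 2530145 to 21282576 counts, with the lowest in library 2 of 5-Ph-IAA at 3 h. Mitochondrially encoded genes held 4.62% of that library's counts, 0.786% in library 1 of the same group and at most 0.324% in the other 13 libraries. A gene is called where it passed in the edgeR fit of all 15 libraries, unless another fit is named. Where such a call ended without a library or in another fit, the adjusted p of that fit is given in brackets. ZPR1 mRNA, which a protein degron does not target, had 124 CPM (mean) at 3 h under 5-Ph-IAA and 94.6 in DMSO (0.41 log2, adjusted p = 0.47), against 153 in untreated cells. At 0.5 h it had 289 CPM (0.91 log2, adjusted p = 0.0864), with all 3 libraries above the untreated ones, and it was lower at 3 h than at 1.5 h (-0.94 log2, adjusted p = 0.0436). Depletion of the protein cannot be read from these counts.

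Glycolysis splits a hexose into pyruvate in the cytosol, and fermenting yeast then turns pyruvate into ethanol through pyruvate decarboxylase and alcohol dehydrogenase. Acetyl-CoA is made from pyruvate by the pyruvate dehydrogenase complex in mitochondria, or in the cytosol from acetaldehyde through acetate. Several steps have isozymes in yeast, often a highly expressed gene that works on abundant glucose and its relatives. Some of these relatives are known to be expressed more when glucose is scarce or in stationary cells. The main activator of the abundant glycolytic genes is Gcr1, which works with Rap1.

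Isozyme genes are alike in sequence, which bears on how reads are shared out between them. TDH1, TDH2 and TDH3 encode glyceraldehyde phosphate dehydrogenase, and the first 120 coding bases of each are shown from the R64 genome (5′ to 3′ on the gene's strand), with the 26 positions at which the 3 genes are not all alike in capitals.
TDH1: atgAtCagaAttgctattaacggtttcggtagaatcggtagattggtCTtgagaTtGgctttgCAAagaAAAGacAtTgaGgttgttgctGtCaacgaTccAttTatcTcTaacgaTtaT
TDH2: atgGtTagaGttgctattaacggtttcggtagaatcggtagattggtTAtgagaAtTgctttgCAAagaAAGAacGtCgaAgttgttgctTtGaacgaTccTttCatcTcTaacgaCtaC
TDH3: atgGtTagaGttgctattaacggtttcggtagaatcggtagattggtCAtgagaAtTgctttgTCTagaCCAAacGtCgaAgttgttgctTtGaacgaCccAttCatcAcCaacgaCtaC
These stretches lie at chrX:338271-338390, forward strand, chrX:454562-454681, reverse strand and chrVII:883691-883810, reverse strand. Over the whole coding sequence TDH2 and TDH3 were 95.8% identical with a longest identical run of 173 bases, TDH1 and TDH3 88.9% with a run of 92. Only TDH2 and TDH3 among the members had a copy of at least 95% identity over at least 50% of the gene. The enolase genes ENO1 and ENO2 came close at 94.8% and differed at 3 of their first 120 coding bases, shown in capitals.
ENO1: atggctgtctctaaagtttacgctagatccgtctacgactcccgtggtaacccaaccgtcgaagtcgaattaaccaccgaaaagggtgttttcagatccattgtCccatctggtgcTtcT
ENO2: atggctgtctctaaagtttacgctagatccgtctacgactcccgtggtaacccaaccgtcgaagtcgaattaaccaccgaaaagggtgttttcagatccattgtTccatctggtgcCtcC
These lie at chrVII:1000927-1001046, forward strand and chrVIII:451327-451446, forward strand. Identity was 91.8% for ALD2 and ALD3 (longest run 329 bases), 88.8% for ADH1 and ADH2 (189), 87.2% for PDC1 and PDC5 and 77.7% for HXK1 and HXK2. How the authors' counting treated reads with several matches is not given in the sources used here. Values of the TDH, ENO, ADH1 and ADH2, ALD2 and ALD3, and PDC1 and PDC5 pairs are uncertain to that extent.

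Together the 34 genes held 4.46% ± 0.303 of all counts in untreated libraries (SD, n = 3), 5.94% ± 0.180, 5.94% ± 0.115 and 5.80% ± 0.643 at 0.5 h, 1.5 h and 3 h under 5-Ph-IAA, and 6.21% ± 0.922 in DMSO. The untreated libraries (4.14% to 4.74%) lay below every other library, the lowest of which had 5.29%. Levels are given as CPM, counts scaled to a common library total with TMM factors, and as CPM per kb where genes are compared. In untreated cells TDH3 was the highest at 9652 CPM per kb, followed by FBA1, the aldolase gene (7281), ADH1, the fermentative alcohol dehydrogenase gene (5988), ENO2 (5967), TPI1, the triose phosphate isomerase gene (3129), and PDC1, the main pyruvate decarboxylase gene (2389). Of these neighbours, ADH1 and ENO2 overlapped in their 3 untreated libraries, and the others did not. Other genes of lower glycolysis were well below TDH3 and ENO2 on the scale per kb. PGK1, phosphoglycerate kinase, was at 397 ± 82.6, GPM1, phosphoglycerate mutase, at 389 ± 55.3 and CDC19, the main pyruvate kinase, at 321 ± 162. Their untreated libraries overlapped, so the order of these genes is not settled. The lowest was PDC6, a minor pyruvate decarboxylase gene, at 0.689 CPM per kb and 164 counts in all 15 libraries together. In these bulk cultures, fewer cells that express a gene and less RNA per cell cannot be told apart.

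**Figure D1:**
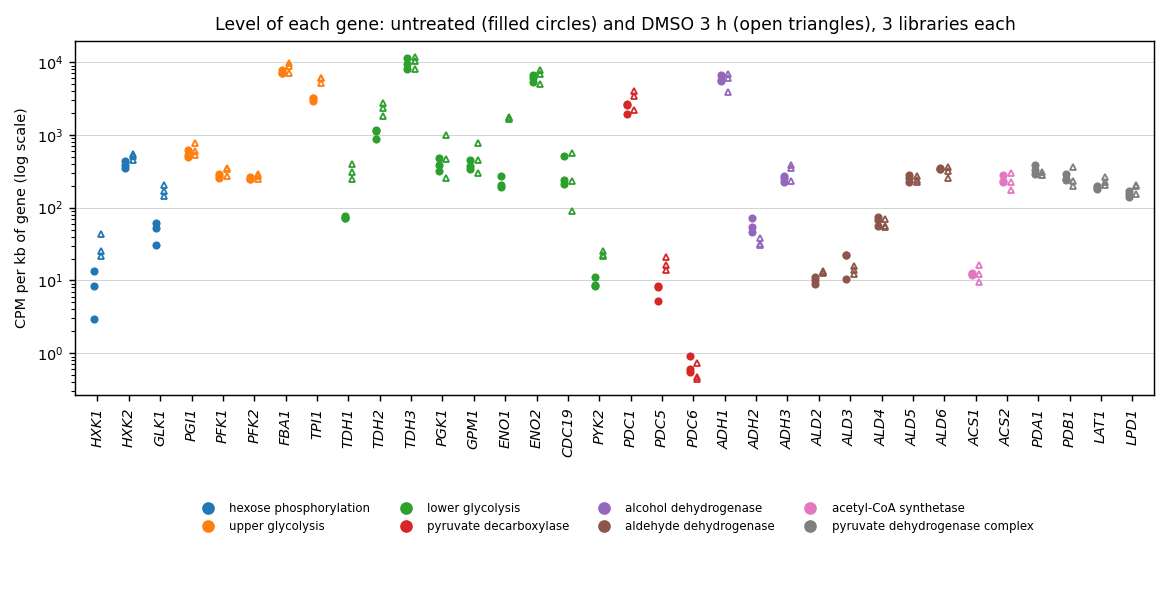
Level of each of the 34 genes in CPM per kb of gene (log scale) in the 3 untreated libraries (filled circles) and the 3 DMSO libraries (open triangles), coloured by enzymatic step. TDH3 stood highest at a mean of 9652 CPM per kb in untreated cells and PDC6 lowest at 0.689. The minor isozyme genes HXK1, GLK1, TDH1, ENO1 and PYK2 lay higher in DMSO. Not all minor isozyme genes did, as ADH2 lay lower (57.4 untreated, 33.6 in DMSO) and ACS1 was alike (12.4 and 12.6).

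The tests were edgeR's quasi-likelihood test with Benjamini-Hochberg adjustment over 6069 genes. All 34 members were tested, and 20 differed between any of the 5 groups, against 44.9% of all genes tested. In the comparison at equal time, 5-Ph-IAA against DMSO after 3 h, 3 members passed (1 higher, 2 lower). This is 8.82% of the list, against 7.94% of all genes (5.07% higher and 2.87% lower). The median change of the members was 0.0035 log2, against -0.022 over all genes tested. The 3 were ALD5, which was higher, and HXK2 and TDH2, which were lower. Scaling by total counts alone gave 5 (1 higher, 4 lower). The libraries of the 2 groups did not overlap for 6 members, against 20% of all genes. When same-numbered 3 h libraries, which deviated together, were treated as pairs, 5 members passed, HXK1 and ALD4 being added as higher. Against untreated cells, 13 members passed at 3 h under 5-Ph-IAA (11 higher, 2 lower, background 39.3%, of which 19.6% higher and 19.7% lower, member median 0.26 log2) and 10 in DMSO (9 higher, 1 lower, background 36.1%, of which 17.6% higher and 18.5% lower, member median 0.23). At 0.5 h 9 passed (7 higher, 2 lower, background 6.15%, of which 3.36% higher and 2.78% lower), and at 1.5 h 9 passed (8 higher, 1 lower, background 17.6%, of which 7.86% higher and 9.74% lower). These 4 comparisons share the untreated libraries. Without overlap between libraries were 17 (background 29%) members at 0.5 h, 17 (background 41.1%) at 1.5 h, 16 (background 46.2%) at 3 h and 12 (background 45.8%) in DMSO, and in the steps from 0.5 h to 1.5 h and on to 3 h 12 (background 25.1%) and 10 (background 32.2%). From 0.5 h to 1.5 h, 2 members passed, both as higher (background 1.14%, of which 0.923% higher and 0.214% lower), and from 1.5 h to 3 h 7 passed, all as higher (background 15.8%, of which 8.9% higher and 6.94% lower). DESeq2 called 4 in the first step, all higher, and 8 in the second, of which HXK2 was lower. Beyond the calls of edgeR, DESeq2 called PDC1 and LPD1 at 0.5 h, GLK1, PYK2, ALD5 and LPD1 at 1.5 h and ADH3 at 3 h against untreated cells, all as higher, LAT1 as higher in DMSO, and TPI1 (lower) and ALD4 (higher) for 5-Ph-IAA against DMSO.

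8 members were higher than in untreated cells both at 3 h under 5-Ph-IAA and in DMSO: HXK1, GLK1, TPI1, TDH1, TDH2, ENO1, PYK2 and PDC5. This is 23.5% of the members, against 12.2% of all genes tested that were higher in both, and the comparisons share the untreated libraries. TDH2 was the only one of these 8 called between 5-Ph-IAA and DMSO. ADH2 was lower in both (background 14.4%). A total of 13 members passed in none of the 7 comparisons, or 38.2% against 47.6% of all genes. They were PGI1, PFK1, PFK2, FBA1, GPM1, CDC19, PDC6, ADH1, ACS1, ACS2, PDA1, PDB1 and LPD1. Of these, CDC19, PDC6, ADH1, ACS2 and PDA1 passed under none of the alternatives tried either.

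**Figure D2:**
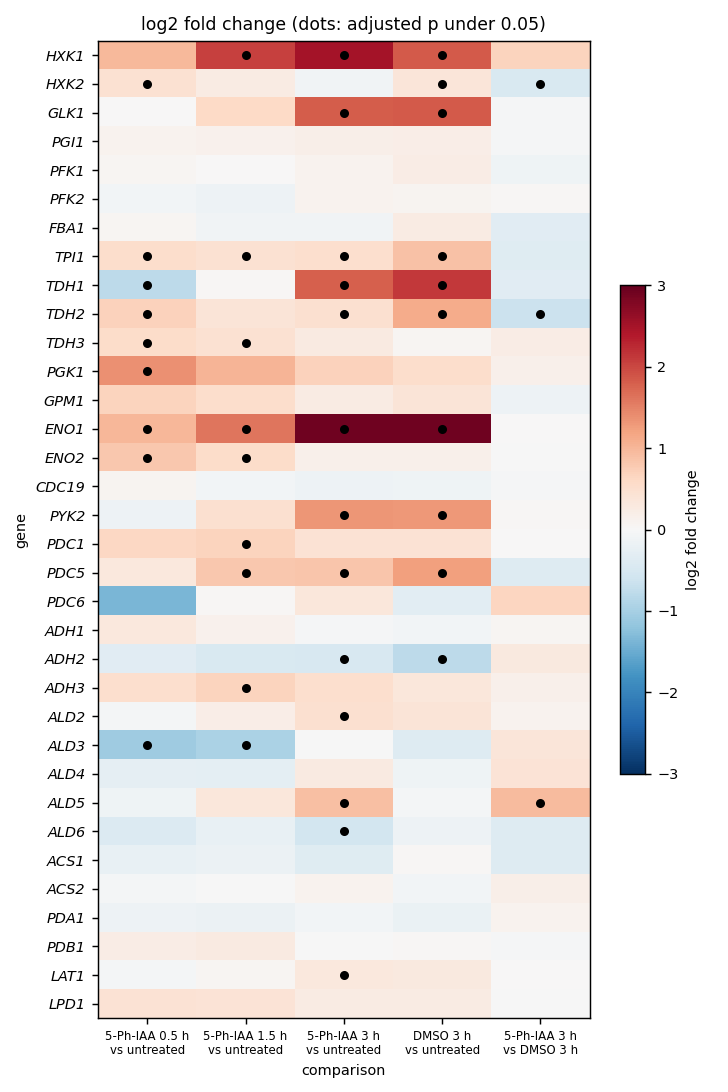
Log2 fold change of each gene (rows) in 5 comparisons (columns), from blue (lower in the first group) to red (higher), with a dot where the adjusted p of edgeR's test was under 0.05. The columns for 5-Ph-IAA and DMSO at 3 h against untreated cells are both dark for HXK1, GLK1, TDH1, ENO1 and PYK2, and the last column, 5-Ph-IAA against DMSO, holds dots for HXK2, TDH2 and ALD5.

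The 8 genes were higher at 3 h in both arms, and the 300 bases that begin 400 bases before each start codon were searched on both strands for CCCCT, the core of the stress response element bound by Msn2 and Msn4. It was present for 6 of the 8 (75.0%), for 17 of the 34 members and for 23.5% of the same windows of 6020 protein-coding genes. GLK1, the glucokinase gene, held 3 matches, and 4.10% of all windows held 2 or more. TDH3, ALD3, ALD4, ACS1 and PDA1, which are not among the 8, held 2 each. CDC19, ADH1, ACS1 and PDA1 held matches and were called in no comparison. The 8 were picked by their calls in these data, and a link of the motif to the rise was not tested. The windows of GLK1, HXK1 and TDH1 are shown 5′ to 3′ on the gene's strand, with matches on either strand in capitals.
GLK1: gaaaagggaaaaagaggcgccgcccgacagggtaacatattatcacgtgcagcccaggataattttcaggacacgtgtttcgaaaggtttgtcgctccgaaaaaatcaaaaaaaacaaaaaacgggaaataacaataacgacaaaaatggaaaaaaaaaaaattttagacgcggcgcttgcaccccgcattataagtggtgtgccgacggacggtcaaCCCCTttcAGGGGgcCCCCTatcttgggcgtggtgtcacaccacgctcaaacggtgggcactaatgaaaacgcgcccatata
HXK1: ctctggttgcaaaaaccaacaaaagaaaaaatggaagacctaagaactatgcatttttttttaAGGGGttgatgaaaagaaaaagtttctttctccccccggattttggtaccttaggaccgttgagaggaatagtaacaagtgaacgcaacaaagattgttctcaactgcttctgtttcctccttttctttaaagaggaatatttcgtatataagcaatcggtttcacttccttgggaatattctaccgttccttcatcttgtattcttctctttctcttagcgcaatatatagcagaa
TDH1: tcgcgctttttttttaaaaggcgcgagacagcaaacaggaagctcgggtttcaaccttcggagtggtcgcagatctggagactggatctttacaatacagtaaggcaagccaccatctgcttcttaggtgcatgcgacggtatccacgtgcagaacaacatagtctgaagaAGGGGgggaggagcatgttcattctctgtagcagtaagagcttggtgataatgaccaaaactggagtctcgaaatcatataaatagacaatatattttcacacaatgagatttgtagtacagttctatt
In R64 they lie at chrIII:50438-50737, forward strand, chrVI:255150-255449, reverse strand and chrX:337871-338170, forward strand. The GLK1 window overlaps the annotated gene YCL042W and the TDH1 window YJL052C-A. ENO1 and TDH2 had no match in this window. CTTCC, the core of Gcr1 sites, was found for 19 of the 34 (55.9%, against 46.9% of all windows) and 5 of the 8. GAANNTTC, a pair of heat shock element units, was found for 8 of the 34 (23.5%, against 12.4%), and ACCCANAC, a core of Rap1 sites, for 2 (5.88%, against 3.52%). Matches of different motifs may overlap, the annotation used marks no untranslated regions, and a match is a string of letters and not a measured site.

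Hexose phosphorylation is shared by HXK2, the main hexokinase on glucose and a part of glucose repression, HXK1, its relative, and GLK1. HXK1 (YFR053C, chromosome VI, 253592 to 255049) had 12.2, 19.9 and 4.30 CPM in the 3 untreated libraries, 23.7, 28.9 and 18.7 at 0.5 h, 47.6, 63.5 and 39.3 at 1.5 h and 55.7, 60.4 and 88.5 at 3 h under 5-Ph-IAA, and 37.0, 31.2 and 62.8 in DMSO. Every library from 1.5 h on, DMSO included, lay above the untreated ones, which themselves spread widely. HXK1 rose by 1.5 h (2.04 log2, SE 0.39, adjusted p = 0.00227) and was 5.68 times the untreated level at 3 h (2.51 log2, adjusted p = 0.00011) and 3.60 times in DMSO (1.85 log2, adjusted p = 0.00154). At 0.5 h it was 0.98 log2, adjusted p = 0.171, which did not pass. GLK1 (YCL040W, chromosome III, 50838 to 52340) had 79.0, 91.7 and 46.6 CPM untreated, 78.7, 70.0 and 68.5 at 0.5 h, 119, 119 and 89.0 at 1.5 h, 224, 298 and 239 at 3 h and 215, 255 and 312 in DMSO. The 3 h libraries of both arms lay above all others. GLK1 was higher at 3 h (1.81 log2, adjusted p = 6.83e-06) and in DMSO (1.85 log2, adjusted p = 9.57e-06), and it rose from 1.5 h to 3 h (1.22 log2, adjusted p = 0.00132). At 1.5 h it had 0.59 log2, adjusted p = 0.0617. It passed there without untreated library 2 (0.0247) or 5-Ph-IAA 1.5 h library 3 (0.0417) and with total counts alone (0.0402), mean of at least 10 CPM (0.0473), DESeq2 (0.0255), only the compared groups (0.0351) or only the compared groups and the replicate number as a block (0.00271). GLK1 overlaps the annotated gene YCL042W.

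HXK2 (YGL253W, chromosome VII, 23935 to 25395) moved otherwise. It had 569, 631 and 511 CPM untreated, 722, 763 and 856 at 0.5 h, 679, 687 and 647 at 1.5 h and 515, 549 and 534 at 3 h under 5-Ph-IAA, against 739, 663 and 787 in DMSO. All 3 libraries of 5-Ph-IAA at 3 h lay below the 3 of DMSO and lay within the range of untreated cells. HXK2 was lower than in DMSO (533 ± 17.2 against 729.9 ± 62.6 CPM, -0.45 log2, SE 0.11, adjusted p = 0.0192, n = 3 and 3). This call ended without 5-Ph-IAA 3 h library 1 (0.0552) or 2 (0.0509) or DMSO library 1 (0.0615) or 3 (0.0591) and with only the compared groups (0.182). It rose at 0.5 h (0.45 log2, adjusted p = 0.0239). That call ended without untreated library 1 (0.0818) or 3 (0.118) or 5-Ph-IAA 0.5 h library 2 (0.0668) or 3 (0.104). HXK2 was higher in DMSO than in untreated cells (0.36 log2, adjusted p = 0.0214). That call ended without untreated library 1 (0.0543) or 3 (0.0754) or DMSO library 1 (0.0506) or 3 (0.0691) and with only the compared groups (0.0576) or only the compared groups and the replicate number as a block (0.144). HXK1 in turn was higher under 5-Ph-IAA than in DMSO when same-numbered 3 h libraries were paired (0.67 log2, adjusted p = 0.0162), and not without pairing (0.66 log2, adjusted p = 0.305).

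Within a library, the ratio of 2 isozyme genes does not depend on how libraries are scaled. For 16 pairs, the log2 ratio of counts per kb was compared over the 5 groups with an exact permutation test over all 1401400 divisions of the 15 libraries into 5 groups of 3, and p was adjusted over the 16 pairs. A total of 9 pairs passed. No share of passing ratios was computed for other gene pairs, and 44.9% of all genes tested differed over the 5 groups. Passing pairs that share HXK2, TDH3 or ALD4 are not separate results. Single comparisons of 3 with 3 libraries cannot go below an exact p of 0.1, so they are given as differences and overlap. The ratio HXK1/HXK2 passed (exact p = 0.000198, adjusted p = 0.000791), going from -5.80 ± 0.97 log2 (SD, n = 3) in untreated cells to -5.05 ± 0.41, -3.77 ± 0.31 and -2.99 ± 0.35 with time in 5-Ph-IAA and -4.12 ± 0.42 in DMSO. HXK2 transcripts were thus 55.5 times as abundant per kb as those of HXK1 in untreated cells, 17.4 times in DMSO and 7.94 times at 3 h under 5-Ph-IAA. The 3 libraries of 5-Ph-IAA at 3 h lay above the 3 of DMSO, by 1.13 log2 on average. GLK1/HXK2 passed too (adjusted p = 0.000278), with -3.07 ± 0.37 untreated, -1.12 ± 0.17 at 3 h under 5-Ph-IAA and -1.54 ± 0.25 in DMSO, where again the 3 libraries of each group did not overlap (difference 0.42). Both pairs passed the test over the 5 groups under every alternative tried. That test does not single out the difference between 5-Ph-IAA and DMSO.

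**Figure D3:**
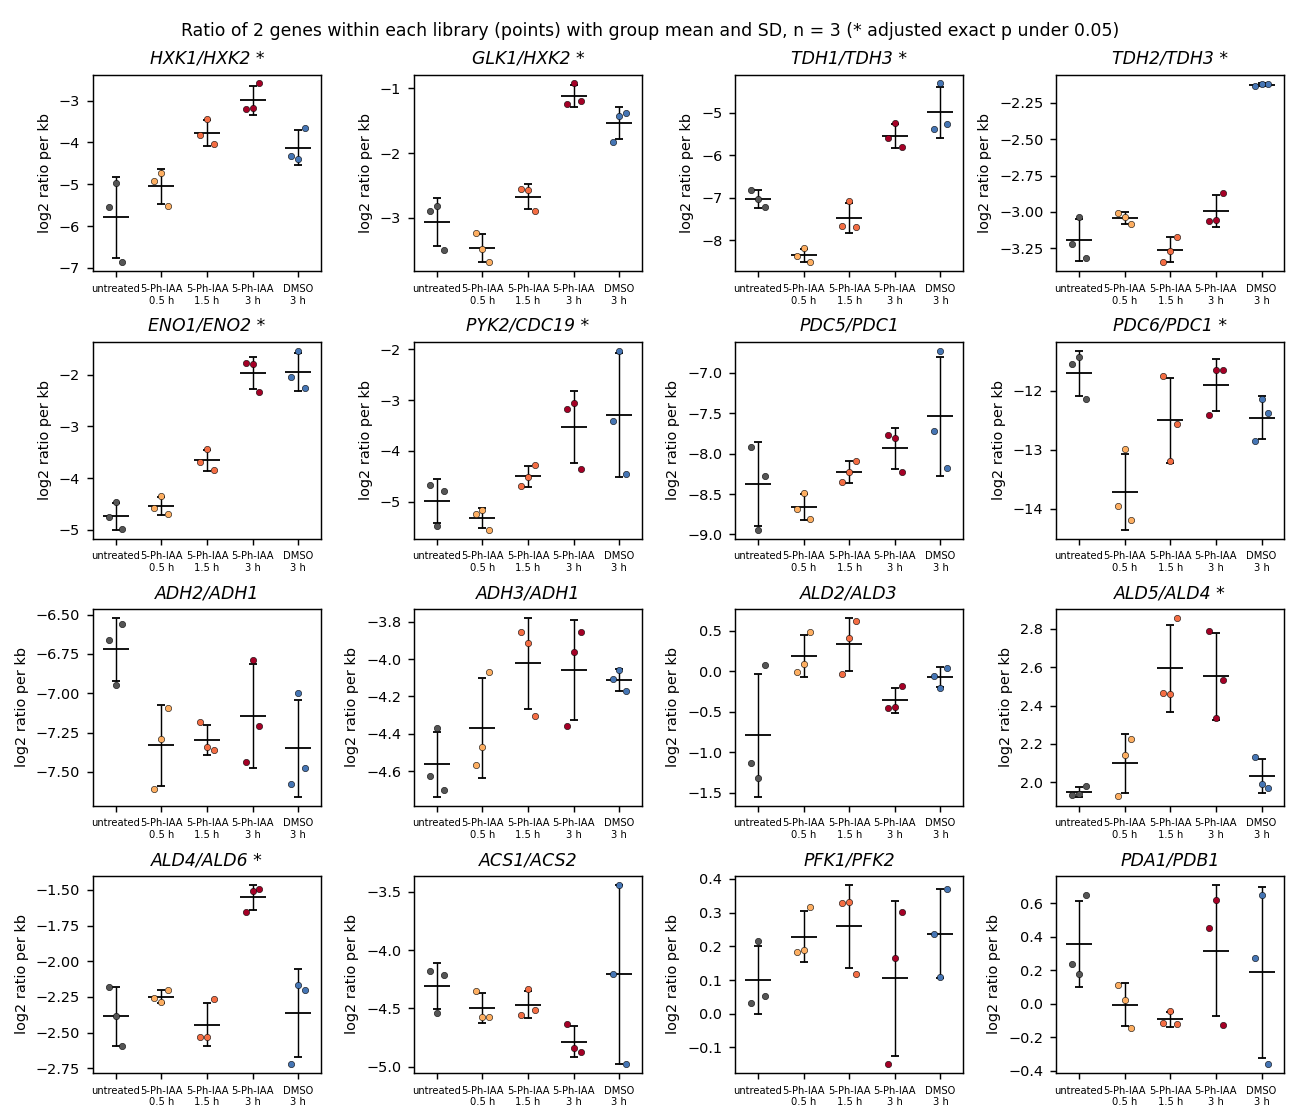
Log2 ratio per kb of 2 genes within each of the 15 libraries (points), with group mean and SD, for 16 pairs of isozymes or subunits, an asterisk marking an adjusted exact p under 0.05. GLK1/HXK2, ENO1/ENO2 and TDH1/TDH3 are high at 3 h in both arms, HXK1/HXK2 is highest at 3 h under 5-Ph-IAA, TDH2/TDH3 is high in DMSO alone (-2.12 ± 0.01, against -2.99 ± 0.11 at 3 h under 5-Ph-IAA), and ALD4/ALD6 is high at 3 h under 5-Ph-IAA.

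In upper glycolysis little moved. FBA1 (YKL060C, chromosome XI, 326408 to 327487), the most abundant gene there, had 7566, 7634 and 8389 CPM untreated, 9049, 7790.4 and 7646 at 0.5 h, 7192, 6931 and 7794 at 1.5 h, 8057, 6419 and 7403 at 3 h and 9626, 7749.8 and 10421 in DMSO, and its groups overlapped throughout. It passed between 5-Ph-IAA and DMSO (-0.35 log2, adjusted p = 0.105) only without DMSO library 2 (0.0287) and with total counts alone (0.0266). TPI1 was the exception, at 2369, 2443 and 2199 CPM untreated, 3561, 3101 and 3464, 3240.0, 3378 and 2998 and 3071, 3080.4 and 3869 with time in 5-Ph-IAA and 4487, 3815 and 4524 in DMSO. It was higher than untreated in all 12 other libraries and passed at 0.5 h (0.53 log2, adjusted p = 0.012), 1.5 h (0.46 log2, adjusted p = 0.0148), 3 h (0.52 log2, adjusted p = 0.00251) and in DMSO (0.87 log2, adjusted p = 4.58e-05). The call at 0.5 h ended without untreated library 3 (0.0701) or 5-Ph-IAA 0.5 h library 1 (0.0559) or 3 (0.0507), and that at 1.5 h without untreated library 3 (0.0612) or 5-Ph-IAA 1.5 h library 2 (0.0691). Against DMSO TPI1 had -0.36 log2, adjusted p = 0.0793, and it passed there as lower without 5-Ph-IAA 3 h library 3 (0.025) or DMSO library 2 (0.0428) and with total counts alone (0.035) or DESeq2 (0.0351). PGI1, glucose phosphate isomerase, and PFK1 and PFK2, the subunits of phosphofructokinase, were not called by edgeR in any comparison, with log2 changes between -0.15 and 0.26. With total counts alone they passed as higher in DMSO than in untreated cells (adjusted p = 0.0293, adjusted p = 0.00814 and adjusted p = 0.0456), as PFK1 did without DMSO library 2. The ratio PFK1/PFK2 ran from 0.10 ± 0.10 to 0.26 ± 0.12 log2 (adjusted p = 0.509).

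The genes of glyceraldehyde phosphate dehydrogenase parted. TDH3 (YGR192C, chromosome VII, 882812 to 883810), the main form, had 8095, 9478 and 11353 CPM untreated, 15007, 12853 and 14305 at 0.5 h, 13830.4, 12467 and 13248 at 1.5 h, 11072, 11570.0 and 12476 at 3 h under 5-Ph-IAA and 10237, 7947 and 11843 in DMSO. It was higher at 0.5 h (0.54 log2, adjusted p = 0.0322) and 1.5 h (0.45 log2, adjusted p = 0.0398), with no overlap, and not called at 3 h in either arm. The call at 0.5 h ended without untreated library 1 (0.147) or 2 (0.102) or 5-Ph-IAA 0.5 h library 1 (0.119), 2 (0.061) or 3 (0.0989). That at 1.5 h ended without untreated library 1 (0.162) or 2 (0.0963) or 5-Ph-IAA 1.5 h library 1 (0.109), 2 (0.0765) or 3 (0.083). TDH1 (YJL052W, chromosome X, 338271 to 339269), known to be expressed in stationary cells, had 72.5, 72.2 and 75.8 CPM untreated and 45.3, 44.2 and 39.2 at 0.5 h, then 68.0, 92.4 and 64.4 at 1.5 h, 229, 308 and 224 at 3 h and 245, 402 and 308 in DMSO. It first fell (-0.77 log2, adjusted p = 0.0162), had 0.03 log2, adjusted p = 0.942 at 1.5 h and then was 3.44 times the untreated level at 3 h (1.78 log2, SE 0.18, adjusted p = 1.78e-06) and 4.33 times in DMSO (2.11 log2, SE 0.18, adjusted p = 9.65e-07). The early fall ended without untreated library 3 (0.0679) or 5-Ph-IAA 0.5 h library 2 (0.0586) or 3 (0.0745). The step from 1.5 h to 3 h was 1.76 log2, adjusted p = 3.43e-05, and the call held under every alternative tried.

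TDH2 (YJR009C, chromosome X, 453683 to 454681) had 868, 1157 and 1136 CPM untreated, 1869.8, 1570.2 and 1686 at 0.5 h, 1361, 1294 and 1468 at 1.5 h and 1326, 1392 and 1710.3 at 3 h under 5-Ph-IAA, against 2332, 1831 and 2720.3 in DMSO. Every DMSO library lay above every library of 5-Ph-IAA at 3 h. TDH2 was lower than in DMSO (1476 ± 205 against 2295 ± 446 CPM, -0.64 log2, SE 0.16, adjusted p = 0.0186, n = 3 and 3). This call ended without 5-Ph-IAA 3 h library 1 (0.065) or 2 (0.079) or DMSO library 1 (0.0594) or 3 (0.0692) and with only the compared groups (0.167). Against untreated cells it was higher in DMSO (1.12 log2, adjusted p = 5.41e-05), at 0.5 h (0.70 log2, adjusted p = 0.012) and at 3 h under 5-Ph-IAA (0.49 log2, adjusted p = 0.0204). The call at 0.5 h ended without untreated library 1 (0.0751) or 5-Ph-IAA 0.5 h library 1 (0.061), and that at 3 h without untreated library 1 (0.104) or 5-Ph-IAA 3 h library 3 (0.0907). The ratio TDH2/TDH3 was nearly alike in the 3 DMSO libraries (-2.12 ± 0.01 log2, SD, n = 3) and lower in the other 12, at -3.19 ± 0.15 untreated, -3.04 ± 0.04, -3.26 ± 0.09 and -2.99 ± 0.11 with time in 5-Ph-IAA (exact p = 0.000576, adjusted p = 0.00184, at most 0.0151 under the alternatives). TDH3 was 9.14 times TDH2 in untreated cells, 7.97 times at 3 h under 5-Ph-IAA and 4.36 times in DMSO. TDH1/TDH3 went from -7.02 ± 0.21 untreated to -8.35 ± 0.16 at 0.5 h and -5.54 ± 0.29 at 3 h, with -4.99 ± 0.59 in DMSO (adjusted p = 9.13e-05). TDH2 and TDH3 are the near-identical genes (95.8%), while TDH1 and TDH3 were 88.9% identical, and their sequences are shown above.

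**Figure D4:**
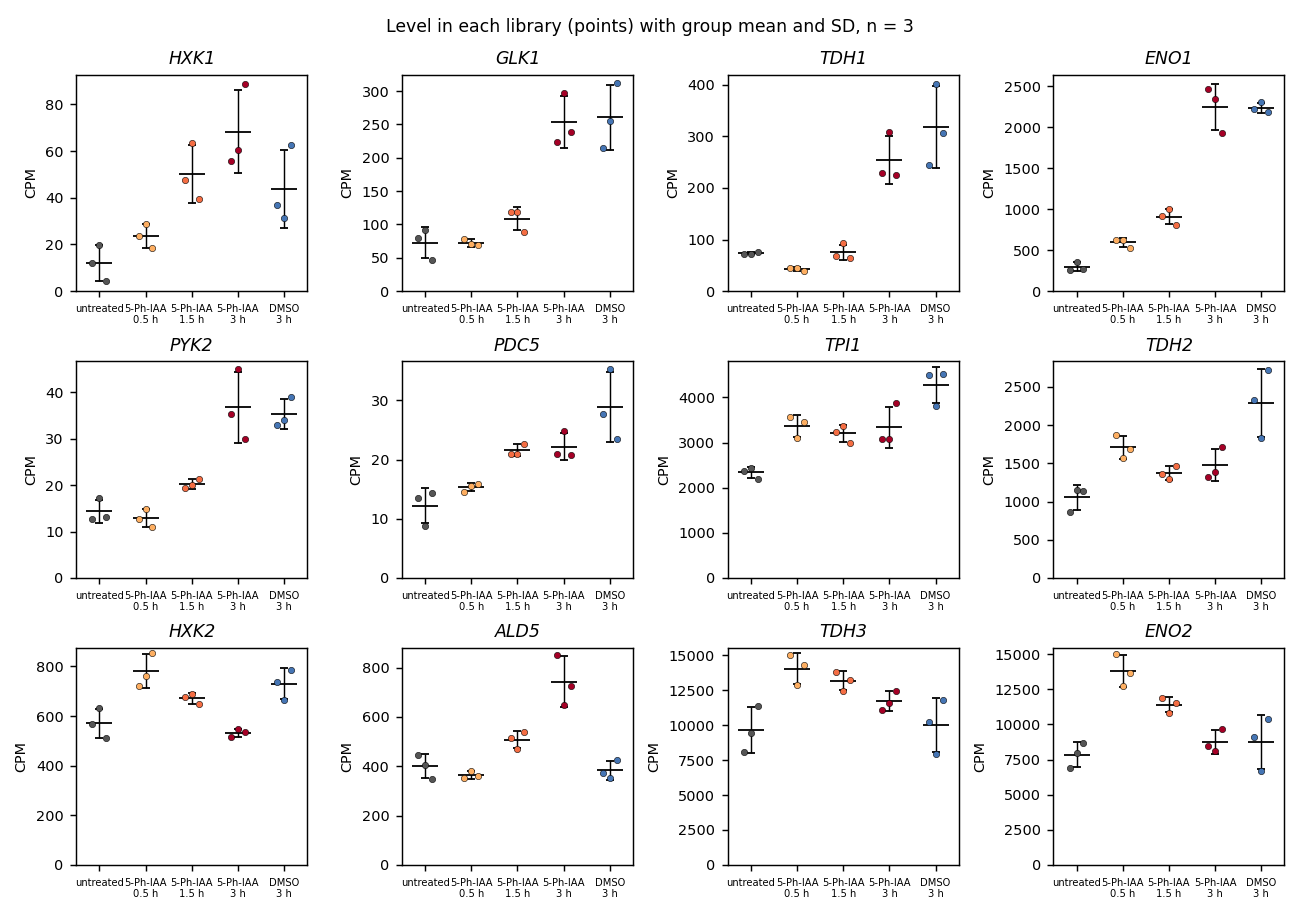
CPM of 12 genes in each of the 15 libraries (points), with group mean and SD (n = 3), all axes starting at 0. ENO1, TDH1, GLK1 and PYK2 are high at 3 h in both arms, HXK2 and TDH2 are higher in DMSO than at 3 h under 5-Ph-IAA, ALD5 is high at 3 h under 5-Ph-IAA (742 ± 104 CPM, against 383 ± 38.4 in DMSO), and TDH3 and ENO2 are highest at 0.5 h.

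Of the enolase genes, ENO2 is the form of glucose-grown cells and ENO1 is known for its expression on other carbon sources. ENO1 (YGR254W, chromosome VII, 1000927 to 1002240) had 257, 359 and 274 CPM untreated, 625, 628 and 529 at 0.5 h, 919, 1001 and 808 at 1.5 h, 2462, 2347 and 1931 at 3 h under 5-Ph-IAA and 2217, 2307 and 2189 in DMSO. Each later group lay above the one before it without overlap, and the arms at 3 h overlapped. ENO1 was 2.003 times the untreated level at 0.5 h (1.003 log2, adjusted p = 0.000316), 3.07 times at 1.5 h, 7.57 times at 3 h (2.92 log2, SE 0.15, adjusted p = 1.38e-09) and 7.55 times in DMSO (2.92 log2, SE 0.15, adjusted p = 1.13e-08). Among the 34 genes these were the largest changes from untreated cells at 3 h in either arm. The step from 0.5 h to 1.5 h (0.61 log2, adjusted p = 0.0486) ended without 5-Ph-IAA 0.5 h library 1 (0.0985), 2 (0.0931) or 3 (0.19) or 5-Ph-IAA 1.5 h library 1 (0.126), 2 (0.245) or 3 (0.0526). That from 1.5 h to 3 h (1.30 log2, adjusted p = 3.93e-05) held under every alternative tried. ENO2 (YHR174W, chromosome VIII, 451327 to 452640) had 6923, 7932 and 8667 CPM untreated, 15010.1, 12744 and 13666 at 0.5 h, 11863, 10827 and 11532 at 1.5 h, 8465, 8079 and 9699.8 at 3 h and 9142, 6682 and 10424 in DMSO. It rose at 0.5 h (0.82 log2, adjusted p = 0.00237) and was higher at 1.5 h (0.54 log2, adjusted p = 0.0168), and was not called at 3 h in either arm. The call at 1.5 h ended without untreated library 1 (0.0759) or 5-Ph-IAA 1.5 h library 1 (0.0539). ENO2 was 26.6 times ENO1 in untreated cells and 23.3, 12.6 and 3.90 times with time in 5-Ph-IAA, and 3.85 times in DMSO (log2 ratio -4.73 ± 0.26 untreated, -1.96 ± 0.32 and -1.94 ± 0.37 at 3 h, exact p = 5.21e-05, adjusted p = 0.000278).

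PYK2, the minor pyruvate kinase gene, had 12.7, 17.2 and 13.2 CPM untreated, 12.7, 14.9 and 11.0 at 0.5 h, 19.4, 19.96 and 21.3 at 1.5 h, 35.4, 44.9 and 29.9 at 3 h and 32.9, 34.1 and 39.0 in DMSO. The 3 h libraries of both arms lay above all others. PYK2 was higher at 3 h (1.33 log2, adjusted p = 2.05e-05) and in DMSO (1.30 log2, adjusted p = 3.42e-05). At 1.5 h it had 0.49 log2, adjusted p = 0.0641. It passed there without untreated library 2 (0.034) and with total counts alone (0.039), all libraries and replicate block (0.0479), DESeq2 (0.0434), only the compared groups (0.0356) or only the compared groups and the replicate number as a block (0.0374). The step from 1.5 h to 3 h was 0.84 log2, adjusted p = 0.00464. It ended with only the compared groups and the replicate number as a block (0.0619). CDC19 (YAL038W, chromosome I, 71786 to 73288) had 322, 764 and 364 CPM untreated, 479, 529.7 and 514 at 0.5 h, 499, 454 and 411 at 1.5 h, 318, 370.0 and 604 at 3 h and 349, 137 and 842 in DMSO. Its DMSO libraries spanned the range of all others, and it was not called. PYK2/CDC19 passed narrowly (adjusted p = 0.039), from -4.98 ± 0.44 log2 untreated to -3.53 ± 0.72 at 3 h and -3.30 ± 1.22 in DMSO. It did not pass without untreated library 2 (0.0607) or 3 (0.0509), 5-Ph-IAA 0.5 h library 1 (0.0687), 2 (0.0644) or 3 (0.0737), 5-Ph-IAA 1.5 h library 1 (0.0562), 2 (0.0594) or 3 (0.052) or DMSO library 1 (0.0516).

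PGK1, GPM1 and CDC19 shared a wide spread at 3 h. PGK1 had 402, 607 and 479.9 CPM untreated, 1252, 1317 and 1289 at 0.5 h, 1094, 1028 and 887 at 1.5 h, 582, 672 and 1134 at 3 h and 584, 316 and 1248 in DMSO. GPM1 had 279.7, 335 and 254, 485, 465 and 432, 419, 516 and 313, 249, 277 and 497 and 339, 220.1 and 577 CPM in the same order. In both arms at 3 h all 3 genes were highest in library 3, and in DMSO they were lowest in library 2. Library 3 also had the lowest share of mitochondrially encoded counts in each arm, 0.0165% and 0.0445%, and its part in these levels was not tested. In edgeR PGK1 passed once, as higher at 0.5 h (1.37 log2, SE 0.35, adjusted p = 0.0292), where its 3 libraries agreed closely at 1286 ± 32.6 CPM against 496 ± 103. That call ended without untreated library 1 (0.123) or 3 (0.114) or 5-Ph-IAA 0.5 h library 1 (0.0688), 2 (0.084) or 3 (0.0718). GPM1 at 0.5 h had 0.67 log2, adjusted p = 0.228, with no overlap between the libraries.

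**Figure D5:**
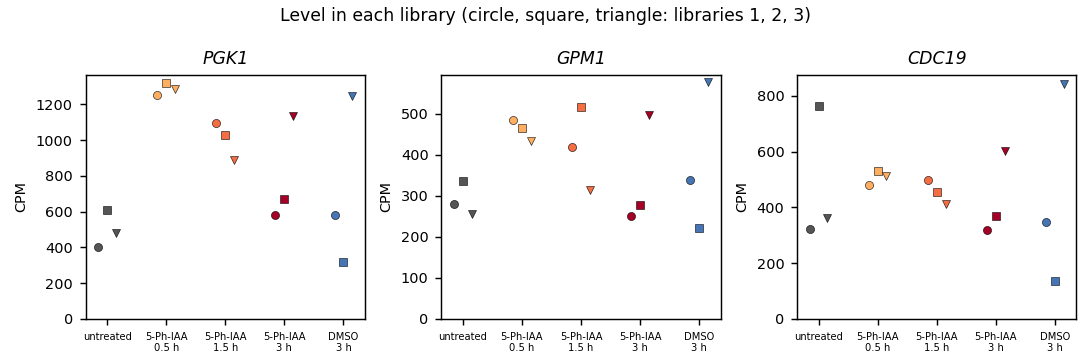
CPM of PGK1, GPM1 and CDC19 in each library, with circle, square and triangle for libraries 1, 2 and 3 of a group. In both groups at 3 h the triangle is highest for all 3 genes, as for CDC19 in DMSO with 349, 137 and 842 CPM in libraries 1, 2 and 3.

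Pyruvate decarboxylase commits pyruvate to ethanol. PDC1 (YLR044C, chromosome XII, 232390 to 234081) had 3297, 4377 and 4451 CPM untreated, 5982, 5614 and 7172 at 0.5 h, 6864, 6333 and 6214 at 1.5 h, 4587, 5584 and 6227 at 3 h and 5861, 3733 and 6789.8 in DMSO. All 3 times of 5-Ph-IAA lay above untreated cells without overlap, and in edgeR 1.5 h alone passed (0.68 log2, adjusted p = 0.021). That call ended without untreated library 1 (0.0948) or 5-Ph-IAA 1.5 h library 1 (0.0633) or 2 (0.0575). At 0.5 h PDC1 had 0.63 log2, adjusted p = 0.0599. It passed there with total counts alone (0.0467), mean of at least 10 CPM (0.046), all libraries and replicate block (0.04), DESeq2 (0.0159), only the compared groups (0.0101) or only the compared groups and the replicate number as a block (0.00201). PDC5, its close relative, was higher at 1.5 h (21.5 ± 1.01 against 12.2 ± 2.96 CPM, 0.82 log2, adjusted p = 0.00724), at 3 h (22.2 ± 2.27, 0.84 log2, adjusted p = 0.00216) and in DMSO (28.8 ± 5.95, 1.24 log2, adjusted p = 9.61e-05). PDC6 had 1.04, 1.53 and 0.929 CPM untreated, 0.343, 0.652 and 0.306 at 0.5 h, 1.93, 0.605 and 0.957 at 1.5 h, 0.766, 1.55 and 1.91 at 3 h and 0.753, 0.806 and 1.24 in DMSO, with as few as 2 counts in a library. It was lowest at 0.5 h (-1.36 log2, adjusted p = 0.187), which did not pass. PDC6/PDC1 passed (adjusted p = 0.0193), with -11.70 ± 0.38 log2 untreated and -13.71 ± 0.64 at 0.5 h, and did not pass with the replicate number as a block (0.0594) and without 5-Ph-IAA 0.5 h library 1 (0.0639) or 3 (0.0675). PDC5/PDC1 did not (adjusted p = 0.0748), except without untreated library 1 (0.0487) or DMSO library 3 (0.0119).

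Alcohol dehydrogenase Adh1 makes ethanol in the cytosol, Adh2 consumes it and is known to be repressed by glucose, and Adh3 is mitochondrial. ADH1 (YOL086C, chromosome XV, 159548 to 160594) had 5788, 5979 and 7039.9 CPM untreated, 9213, 7242 and 6787 at 0.5 h, 6846, 6285 and 7489 at 1.5 h, 6247, 4819.5 and 7310.1 at 3 h and 6380.3, 4058 and 7193 in DMSO. The groups overlapped, and none of its comparisons passed. ADH2 was low throughout, at 57.2, 48.5 and 74.7 CPM untreated, 36.0, 43.4 and 49.4 at 3 h under 5-Ph-IAA and 33.5, 31.7 and 40.3 in DMSO. It was lower in DMSO than in untreated cells (-0.78 log2, adjusted p = 0.00118) and at 3 h under 5-Ph-IAA (-0.48 log2, adjusted p = 0.0253). The latter call ended without untreated library 3 (0.234) or 5-Ph-IAA 3 h library 1 (0.115) or 2 (0.0715) and with total counts alone (0.109), only the compared groups (0.0941) or only the compared groups and the replicate number as a block (0.0577). ADH3 was called by edgeR at 1.5 h alone (456 ± 51.2 against 285 ± 30.00 CPM, 0.68 log2, adjusted p = 0.0303), and not without untreated library 1 (0.111) or 3 (0.0762) or 5-Ph-IAA 1.5 h library 1 (0.104) or 2 (0.0773). At 3 h under 5-Ph-IAA it had 0.50 log2, adjusted p = 0.0619. It passed there without 5-Ph-IAA 3 h library 1 (0.0321) or 2 (0.0292) and with total counts alone (0.0138) or DESeq2 (0.0365). ADH2/ADH1 and ADH3/ADH1 did not pass (adjusted p = 0.0785 and 0.0766), except without DMSO library 2 (0.049) and without 5-Ph-IAA 3 h library 1 (0.0427), respectively.

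Among the aldehyde dehydrogenases, Ald4 and Ald5 are mitochondrial and Ald6 makes acetate in the cytosol. ALD5 (YER073W, chromosome V, 304030 to 305592) had 445, 405 and 348 CPM untreated, 351, 381 and 359 at 0.5 h, 515, 471 and 538 at 1.5 h and 853, 647 and 726 at 3 h under 5-Ph-IAA, against 372, 352 and 426 in DMSO. The 3 libraries at 3 h under 5-Ph-IAA lay above all 12 others, and the DMSO libraries lay among the untreated ones. ALD5 was 1.94 times the DMSO level (742 ± 104 against 383 ± 38.4 CPM, 0.95 log2, SE 0.13, adjusted p = 0.000216, n = 3 and 3) and 1.86 times the untreated level (0.89 log2, adjusted p = 4.63e-05). Both calls held under every alternative tried. The step from 1.5 h to 3 h (0.55 log2, adjusted p = 0.00909) ended with only the compared groups and the replicate number as a block (0.113).

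ALD4 (YOR374W, chromosome XV, 1039840 to 1041399) had 116, 105 and 88.1 CPM untreated, 92.2, 86.0 and 76.7 at 0.5 h, 93.0, 85.4 and 74.0 at 1.5 h, 123.1, 128 and 125 at 3 h and 84.5, 88.4 and 108 in DMSO. The 3 h libraries of 5-Ph-IAA lay above all others, and it rose from 1.5 h to 3 h (0.57 log2, adjusted p = 0.00782), a call that ended with only the compared groups and the replicate number as a block (0.086). Against DMSO it narrowly missed (0.42 log2, adjusted p = 0.0577) and passed without DMSO library 3 (0.0201) and with DESeq2 (0.0287) or only the compared groups and the replicate number as a block (0.0423). ALD6 (YPL061W, chromosome XVI, 432588 to 434090) had 509.6, 530.2 and 513 CPM untreated, 425, 404 and 339.8 at 0.5 h, 518, 476 and 343 at 1.5 h, 373, 351 and 339 at 3 h and 537, 382 and 481 in DMSO. It was lower than untreated at 3 h under 5-Ph-IAA (-0.55 log2, SE 0.15, adjusted p = 0.00966), and the call held under every alternative tried. Against DMSO it had -0.40 log2, adjusted p = 0.13, with no overlap, and passed without DMSO library 2 (0.0494). ALD4/ALD6 was -1.55 ± 0.09 log2 at 3 h under 5-Ph-IAA and between -2.44 ± 0.15 and -2.25 ± 0.04 in the other groups (adjusted p = 0.0182), and did not pass with the replicate number as a block (0.0538). ALD5/ALD4 was 1.95 ± 0.03 untreated, 2.59 ± 0.23 at 1.5 h, 2.55 ± 0.23 at 3 h and 2.03 ± 0.09 in DMSO (adjusted p = 0.0069).

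ALD2 and ALD3, stress-induced cytosolic forms that take part in making beta-alanine for coenzyme A, reached at most 35.3 CPM. ALD3 had 33.9, 33.9 and 15.9 CPM untreated, 14.3, 15.002 and 9.95 at 0.5 h, 18.0, 15.6 and 9.44 at 1.5 h and 25.0, 35.3 and 23.9 at 3 h, against 21.0, 23.8 and 18.8 in DMSO. It fell at 0.5 h (-1.07 log2, adjusted p = 0.0307) and was lower at 1.5 h (-0.96 log2, adjusted p = 0.0296), and rose from 1.5 h to 3 h (0.94 log2, adjusted p = 0.0362). The call at 0.5 h ended without untreated library 1 (0.13) or 2 (0.112) or 5-Ph-IAA 0.5 h library 1 (0.0762), 2 (0.0665) or 3 (0.134). That at 1.5 h ended without untreated library 1 (0.111) or 2 (0.106) or 5-Ph-IAA 1.5 h library 2 (0.0694) or 3 (0.119). The last step ended without 5-Ph-IAA 1.5 h library 2 (0.0754) or 3 (0.129) or 5-Ph-IAA 3 h library 1 (0.0548) or 2 (0.12) and with only the compared groups and the replicate number as a block (0.0696). In edgeR ALD2 passed only at 3 h under 5-Ph-IAA against untreated cells (21.8 ± 3.91 against 15.3 ± 1.64 CPM, 0.49 log2, adjusted p = 0.029). It did not pass without untreated library 1 (0.0628) or 2 (0.0895) or 5-Ph-IAA 3 h library 2 (0.0964) or 3 (0.0602) and with only the compared groups (0.0696) or only the compared groups and the replicate number as a block (0.108). ALD2/ALD3 did not pass (adjusted p = 0.0607), except with the replicate number as a block (0.0219) and without untreated library 3 (0.000975).

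Acetyl-CoA synthetase Acs2 serves cells on glucose and Acs1 is known to be repressed by it. ACS2 had 464, 574 and 485 CPM untreated, 474, 476 and 521 at 0.5 h, 546, 457 and 505 at 1.5 h, 487, 496 and 651 at 3 h and 462, 361 and 621 in DMSO, with groups that overlapped. ACS1 ran from 17.8 to 34.6 CPM over the 15 libraries. Neither was called in edgeR, and their ratio did not pass (adjusted p = 0.466), except without DMSO library 3 (0.0028). ACS1 passed as lower between 5-Ph-IAA and DMSO without DMSO library 3 (0.0386). In the pyruvate dehydrogenase complex, PDA1, its alpha subunit gene, had 365, 417 and 483 CPM untreated, 376, 360.0 and 399 at 0.5 h, 384, 371 and 357 at 1.5 h, 389, 434 and 374 at 3 h and 360.4, 388 and 358 in DMSO. Its groups overlapped in every comparison. PDB1, the beta subunit gene, and LPD1, the dihydrolipoamide dehydrogenase gene, had no call in edgeR either. LPD1 had 0.43 log2, adjusted p = 0.101 at 0.5 h and 0.41 log2, adjusted p = 0.0641 at 1.5 h. It passed at 0.5 h with DESeq2 (0.05), only the compared groups (0.0159) or only the compared groups and the replicate number as a block (0.0122). At 1.5 h it passed with total counts alone (0.0302), mean of at least 10 CPM (0.0463), DESeq2 (0.0344), only the compared groups (0.00792) or only the compared groups and the replicate number as a block (0.00692). LAT1, the acetyltransferase gene, was called by edgeR at 3 h under 5-Ph-IAA against untreated cells (343 ± 37.1 against 276 ± 10.9 CPM, 0.31 log2, adjusted p = 0.042). It did not pass without untreated library 1 (0.124) or 3 (0.0622) or 5-Ph-IAA 3 h library 1 (0.0858) or 2 (0.118) and with only the compared groups (0.0684) or only the compared groups and the replicate number as a block (0.103). In DMSO it had 0.29 log2, adjusted p = 0.058. It passed there without DMSO library 1 (0.0262) and with total counts alone (0.00429), no filter (0.0451), mean of at least 10 CPM (0.0422) or DESeq2 (0.0226). Between 5-Ph-IAA and DMSO none of the 4 genes of the complex passed in edgeR or DESeq2, and 0 had an unadjusted p under 0.05. PDA1/PDB1 did not pass (adjusted p = 0.438).

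Genes around this pathway were read from 8 lists of 73 genes for 5-Ph-IAA against DMSO at 3 h, where 5.07% of all genes were higher and 2.87% lower. These shares are the background of each list count that follows for that comparison. The lists were chosen with earlier results of these data known, so a count above the background is no test of a list. Of 10 genes of pyruvate transport and control of pyruvate dehydrogenase, 3 were higher and none lower: PKP2, a kinase of the complex (86.9 ± 8.18 against 46.01 ± 4.38 CPM, 0.92 log2, adjusted p = 0.000397), MPC2, a subunit of the pyruvate carrier of glucose-grown cells (860.1 ± 142 against 492 ± 61.0, 0.81 log2, adjusted p = 0.00206), and PYC2, a pyruvate carboxylase (711 ± 20.9 against 469 ± 41.7, 0.60 log2, adjusted p = 0.00152). With only the compared groups MPC2 (0.0525) and PYC2 (0.0718) did not pass. The list's median was 0.26 log2, and MPC1 (0.20 log2, adjusted p = 0.502) and PDX1 (-0.20 log2, adjusted p = 0.358) did not pass. Of 12 other genes of glycolysis and fermentation, ADH4 was lower (106, 115 and 59.6 against 469.6, 709.6 and 458 CPM, -2.56 log2, adjusted p = 2.49e-06) and ADH5 higher (253 ± 33.2 against 155 ± 21.2 CPM, 0.71 log2, adjusted p = 0.00268), the latter not with only the compared groups (0.0564). ADH4 had 126 ± 6.66 CPM in untreated cells, so its DMSO libraries lay above the untreated ones and those of 5-Ph-IAA at 3 h below them. Untreated means were 25.6 CPM for PKP2, 647 for MPC2, 456 for PYC2 and 49.5 for ADH5. For MPC2, the DMSO libraries lay below the untreated ones and those of 5-Ph-IAA at 3 h above them.

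Of 4 genes of glycerol synthesis, GPP2, a glycerol phosphatase, was higher than in DMSO (331 ± 54.0 against 162 ± 5.16 CPM, 1.03 log2, adjusted p = 0.000823), while GPD1, the main glycerol phosphate dehydrogenase gene, differed from untreated cells alike in both arms (1.72 and 1.75 log2, adjusted p = 2.57e-05 and 3.06e-05). Of 11 genes of the pentose phosphate pathway, NQM1, a transaldolase relative, was the one higher (1.23 log2, adjusted p = 0.00833). Of 13 genes of glucose repression and derepression, HAP4, the activator of respiratory genes, was higher (301 ± 57.8 against 156 ± 17.3 CPM, 0.95 log2, adjusted p = 0.000558), as was SIP4, an activator of gluconeogenic genes (0.73 log2, adjusted p = 0.019), which did not pass without 5-Ph-IAA 3 h library 2 (0.0965) or DMSO library 1 (0.0729) or 3 (0.0514) and with only the compared groups (0.116). MIG1 (-0.12 log2, adjusted p = 0.759) and SNF1 (-0.08 log2, adjusted p = 0.79), the repressor and the kinase of that system, did not pass. ADR1, of the same list, was alike in both arms at 3 h (62.9 ± 15.1 CPM under 5-Ph-IAA and 62.2 ± 16.7 in DMSO). It had 18.6 ± 1.67 CPM untreated, 60.2 ± 9.15 at 0.5 h and 51.4 ± 8.16 at 1.5 h, and every other library lay above the untreated ones. Of 7 genes that use acetyl-CoA, ERG10, the thiolase of sterol synthesis, was higher (0.48 log2, adjusted p = 0.0402), and not without 5-Ph-IAA 3 h library 2 (0.0847) or 3 (0.0971) or DMSO library 1 (0.113) or 2 (0.113) and with only the compared groups (0.251). ERG10 had 330 ± 30.8 CPM untreated, 352 ± 27.7 at 3 h under 5-Ph-IAA and 253 ± 54.3 in DMSO.

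None of 9 genes of gluconeogenesis and the glyoxylate cycle passed between 5-Ph-IAA and DMSO in edgeR (2 at an unadjusted p under 0.05, 1 in DESeq2), nor did any of 7 regulators of glycolytic genes (1 and 0). At 0.5 h against untreated cells, 1 of the former was called, against backgrounds of 3.36% higher and 2.78% lower: CIT2, the citrate synthase of peroxisomes (1.47 log2, adjusted p = 6.38e-05), and 1 of the latter, REB1, a general regulatory factor (0.56 log2, adjusted p = 0.00221). CIT2 had 66.5 ± 20.1 CPM untreated, 184 ± 17.7 at 0.5 h and 128 ± 19.6 at 1.5 h. At 3 h it had 265 ± 19.7 under 5-Ph-IAA and 304 ± 22.1 in DMSO, so its rise was also present without the compound. REB1 had 122 ± 2.08 CPM untreated, 179 ± 1.95 at 0.5 h, 135 ± 13.4 at 3 h under 5-Ph-IAA and 118 ± 6.38 in DMSO. FBP1 and PCK1, the key genes of gluconeogenesis, had -0.44 and 0.42 log2 at 3 h under 5-Ph-IAA against untreated cells and 0.09 and 0.35 in DMSO, with no call. GCR1 was higher than untreated at 3 h in both arms (0.48 log2, adjusted p = 0.0133, and 0.72 log2, adjusted p = 0.000898 in DMSO), and its partner GCR2 was lower (-0.89 log2, adjusted p = 6.83e-06, and -0.60 log2, adjusted p = 0.000278).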

How the data were processed

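The deposited table holds raw counts per gene for 15 libraries. The submitters' processing notes name FastQC 0.11.5, STAR 2.7.0, DESeq2 1.34.0 and build R64, with no settings, and neither the counter nor strandedness is given in the sources used here. Library totals, TMM factors and edgeR 4.0.16 (quasi-likelihood, filterByExpr, all 15 libraries in one fit, Benjamini-Hochberg adjustment over 6069 genes, threshold 0.05) were computed from the counts in R 4.3.3. Alternatives were DESeq2 1.42.0, other scalings and filters, fits of the compared groups alone, a replicate block and each library left out. The members, gene lists and pairs were chosen with earlier results of these data known. All 34 members are described. Related genes are named where called between 5-Ph-IAA and DMSO, or at 0.5 h for lists with no such call. Some genes without such a call are named beside them, such as MPC1, PDX1, GPD1, ADR1, FBP1, PCK1 and the main regulators. Ratios had 0.5 added to each count, with an exact permutation test. On simulated data for 5-Ph-IAA against DMSO at 3 h (6029 genes), 26.9%, 86.6% and 97.0% of changes of 1.5, 2 and 4 times were recovered, with 9 of 149 calls false. The labels give replicate numbers. Deviations of same-numbered libraries of 5-Ph-IAA and DMSO at 3 h correlated at 0.196, 0.302 and 0.586, so that comparison was also fitted as pairs. Sequences are RefSeq R64 (strain S288C), while the strain sequenced was W303.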

Additional observations from a re-analysis of the deposited data

Results flagged for a closer look

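Each step between successive times of 5-Ph-IAA tests the difference of 2 effects against the same untreated cells, and 9 such differences passed in edgeR's test. From 0.5 h to 1.5 h they were TDH1 (0.80 log2, adjusted p = 0.0413) and ENO1 (0.61 log2, adjusted p = 0.0486), and the TDH1 step ended without 5-Ph-IAA 0.5 h library 1 (0.109), 2 (0.117) or 3 (0.176) or 5-Ph-IAA 1.5 h library 1 (0.0724), 2 (0.258) or 3 (0.0526). From 1.5 h to 3 h they were GLK1 (1.22 log2, adjusted p = 0.00132), TDH1 (1.76 log2, adjusted p = 3.43e-05), ENO1 (1.30 log2, adjusted p = 3.93e-05), PYK2 (0.84 log2, adjusted p = 0.00464), ALD3 (0.94 log2, adjusted p = 0.0362), ALD4 (0.57 log2, adjusted p = 0.00782) and ALD5 (0.55 log2, adjusted p = 0.00909). DMSO was sampled at 3 h alone, so time and compound cannot be told apart in these steps.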

How the results depend on the processing

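Of 3317 values of members under an alternative, 3106 kept their call or their lack of one, 103 lost a call and 108 gained one. Direction was compared only where at least 1 of the 2 fits held a call, and there 0 reversed. For values without a call in either fit, a change of sign was not counted. The count of members called for 5-Ph-IAA against DMSO was 5 in DESeq2, 5 with total counts alone, 1 with only the compared groups and 5 with these paired by replicate number. With only the compared groups it was 14 at 0.5 h and 17 at 1.5 h against untreated cells, and 6 from 0.5 h to 1.5 h. With total counts alone it was 15 at 1.5 h and 20 in DMSO against untreated cells, and 4 from 0.5 h to 1.5 h, while the median of all genes stood at 0.21 log2 in DMSO and 0.15 at 3 h under 5-Ph-IAA against untreated cells. DESeq2 called 4 from 0.5 h to 1.5 h. The cause was not tested. Leaving out 1 library gave 1 to 6 for 5-Ph-IAA against DMSO, 3 to 8 at 0.5 h, 4 to 10 at 1.5 h, 10 to 13 at 3 h and 9 to 15 in DMSO against untreated cells, 0 to 0 and 6 to 7 for the successive steps and 15 to 21 over the 5 groups. In the other comparisons same-numbered libraries did not deviate together. With the compared groups alone and the replicate number as a block the count was 15 at 0.5 h, 17 at 1.5 h, 12 at 3 h and 9 in DMSO against untreated cells, and 4 and 3 for the steps. With all libraries and that block it was 3, 10, 12, 13, 10, 2 and 8 for the 7 comparisons in the order of the leave-out ranges. Of the ratios, 8 passed with the block, and 7 to 11 with 1 library left out. The smallest library and minor isozymes of few counts limit precision.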
